A study of Mus musculus with 21 samples.

Results

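The H3K9 demethylases described here are 9 genes, Kdm1a, Kdm3a, Kdm3b, Kdm4a, Kdm4b, Kdm4c, Kdm7a, Phf2 and Phf8, taken by symbol from the 55341 genes of the count table, and all 9 were found there. The series profiled fibro-adipogenic progenitors (FAPs), stromal muscle cells able to turn into fat or fibrous tissue, which multiply once the muscle is damaged. In the genotype called Prdm16, adult mice had both Prdm16 alleles floxed, and Cre activity was brought about by tamoxifen in cells that express Pdgfra (Prdm16Flox/Flox::PdgfrαCre-ERT/+). In the genotype called WT they carried the same floxed alleles without the Cre (Prdm16Flox/Flox::Pdgfrα+/+), so WT here is not free of the floxed allele. Mice of both genotypes received tamoxifen for 5 days, and 7 days later their muscle was injured with cardiotoxin. FAPs were sorted 5 days after injury and grown for 4 to 5 days before collection, so every value describes cultured cells. RNA was sequenced in 2 Prdm16 and 3 WT libraries. Domains of H3K9me2, a mark of repressed chromatin, were given for 3 Prdm16 and 3 WT libraries, and LaminB1 domains, which mark chromatin at the nuclear lamina, for 1 library of each genotype. Library numbers were given within each assay, so WT 1 of the RNA and WT 1 of H3K9me2 are different samples.

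Methyl groups on lysine 9 of histone H3 are laid down by methyltransferases and removed by demethylases, and the balance of both sets how much of the genome carries the repressive mark. Kdm1a (LSD1) is a flavin-dependent amine oxidase, while the other members belong to the Jumonji (JmjC) family, which uses iron, oxygen and 2-oxoglutarate. Because these enzymes consume oxygen, and because Kdm3a is itself a known target of hypoxia-inducible factor (HIF), the family is often described at the meeting point of chromatin and oxygen supply. PRDM16, whose gene is the target in this model, is a zinc-finger regulator of brown fat identity with reported H3K9 methyltransferase activity.

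The promoters of Kdm3a, Kdm4c and Phf8 are shown because these members return in the hypoxia and H3K9me2 results below, which do not use the sequences. Kdm3a is the member known as a HIF target, and Kdm4c and Phf8 were the members that lay in H3K9me2 domains. Each line gives the gene strand from 250 bases before to 50 bases after an annotated start (RefSeq, GRCm38.p6), and capitals mark ACGTG or GCGTG on either strand, the core letters of the HIF-binding element.
Kdm3a, chr6:71632868-71633167, minus strand: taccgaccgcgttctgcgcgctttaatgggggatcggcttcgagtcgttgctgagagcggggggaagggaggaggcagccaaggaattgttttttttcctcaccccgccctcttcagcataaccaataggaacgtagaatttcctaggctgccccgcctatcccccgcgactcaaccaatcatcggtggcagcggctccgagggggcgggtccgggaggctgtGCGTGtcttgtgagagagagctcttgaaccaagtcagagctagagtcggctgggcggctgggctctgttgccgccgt
Kdm4c, second annotated start, chr4:74251629-74251928, plus strand: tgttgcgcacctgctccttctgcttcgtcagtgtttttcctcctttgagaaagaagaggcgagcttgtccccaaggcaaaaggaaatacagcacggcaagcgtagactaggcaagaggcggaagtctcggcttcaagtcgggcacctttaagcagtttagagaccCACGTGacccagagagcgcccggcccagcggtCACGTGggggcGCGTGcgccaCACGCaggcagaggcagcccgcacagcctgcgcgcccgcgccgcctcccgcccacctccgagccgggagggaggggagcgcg
Phf8, chrX:151520422-151520721, plus strand: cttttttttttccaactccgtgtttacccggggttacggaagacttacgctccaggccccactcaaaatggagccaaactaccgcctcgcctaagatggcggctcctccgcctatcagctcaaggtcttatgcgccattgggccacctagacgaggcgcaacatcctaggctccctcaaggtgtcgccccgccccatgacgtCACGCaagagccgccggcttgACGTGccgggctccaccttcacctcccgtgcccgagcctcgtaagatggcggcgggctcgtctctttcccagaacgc
Kdm3a had 1 match, which began 27 bases before the start, and the windows at its other 2 annotated starts held no match. The Kdm4c window shown held 6 matches that overlap in part, since each of its 2 CACGTG words is read on both strands, and CACGTG is also the E-box that other factors bind. The window at its first annotated start held no match. Phf8 had 2 matches, 1 on each strand. Among the 7 members in the promoter table, 5 had a match at 1 or more starts, as did 46.7% of all 27025 genes in that table, and the letters were found in 43.8% of all 32851 windows of the same length. A match describes these letters and is not a measured site.

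Libraries are named by their labels throughout, since the deposited comparison did not follow them. Total counts ran from 5839587 to 8448654 in the Prdm16 libraries and from 7053114 to 10657791 in the WT libraries. Prdm16, the targeted gene, had 91 and 86 counts in the Prdm16 libraries and 171, 94 and 59 in the WT libraries (log2 fold change 0.13, SE 0.47, edgeR adjusted p = 0.9996), and the count may include transcript outside the floxed part. The authors' deposited table gave p-values that DESeq2 returned within 1% for 14607 of 14607 genes when WT 3 and Prdm16 2 were taken as the Prdm16 pair, and for 169 of them when the labels were followed. The library Prdm16 2 also had 15 counts of Xist, against 3483 to 4652 in the other 4 libraries, and was the library with abundant Y-linked transcripts. The 12 FAP markers summed to 7798 and 7464 CPM (counts per 1000000 of the scaled library size) in the Prdm16 libraries and to 7565, 8398 and 4243 CPM in the WT libraries, so WT 3 stood apart as the lowest. Of these markers 4, Cd34, Lum, Dcn and Dpt, were above all WT libraries in both Prdm16 libraries, where 1345 of 15240 tested genes were. For Dpt the gap was narrow, 49.96 CPM in Prdm16 1 against 49.88 CPM in WT 2. Lum, a matrix proteoglycan, had 94.9 and 88.8 CPM in Prdm16, against 60.03, 38.3 and 8.12 CPM in WT. The log2 fold changes were positive for 7 of the 12 markers and negative for 5, which were Hic1, Tcf7l2, Ly6a, Pdgfra and Pi16. Pdgfra, the marker that drives Cre here, lay at 587 to 761 CPM in Prdm16 and at 471 to 950 CPM in WT. The 8 myoblast markers summed to 287 to 300 CPM in Prdm16 and to 112 to 370 CPM in WT. Macrophage markers summed to 23.8 to 32.7 CPM in Prdm16 and 19.3 to 24.7 CPM in WT, with Adgre1 and C1qa at 0 in all 5 libraries. Pericyte and smooth muscle markers summed to 222 to 274 CPM in Prdm16 and 200 to 468 CPM in WT. Endothelial markers summed to 17.8 to 24.5 CPM in Prdm16 and 19.6 to 30.8 CPM in WT, and Schwann markers to 6.75 to 8.17 CPM in Prdm16 and 5.51 to 13.5 CPM in WT. In such bulk samples fewer cells of a type and less RNA per cell cannot be told apart, and the part of these markers in the results below was not tested.

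No H3K9 demethylase passed the test for a difference between the genotypes as labelled. All 9 members passed the filter on low counts and were tested among 15240 genes. By the two-sided quasi-likelihood test of edgeR with Benjamini-Hochberg adjustment, 0 of 9 were called at an adjusted p under 0.05, where the background was 0% (0 of 15240 genes). At an unadjusted p under 0.05 the count was 0 of 9, against a background of 2.48% of genes, and DESeq2 and limma-voom also called 0 members (2 and 0 of all genes). In 0 of 9 members were both Prdm16 libraries above all WT libraries or both below them, where 17.8% of all tested genes were. Of the 9 log2 fold changes 6 were positive and 3 negative, with a median of 0.026, beside a median of 0.0005 and 7634 positive of 15240 over all tested genes. The 9 genes summed to 244 and 316 CPM in the Prdm16 libraries and to 273, 276 and 275 CPM in the WT libraries. Whether each library came from its own animal is not stated in the labels. The Xist and Y-linked counts set Prdm16 2 apart from Prdm16 1 as different animals, while among the WT libraries the spread behind the p-values may be technical.

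**Figure D1:**
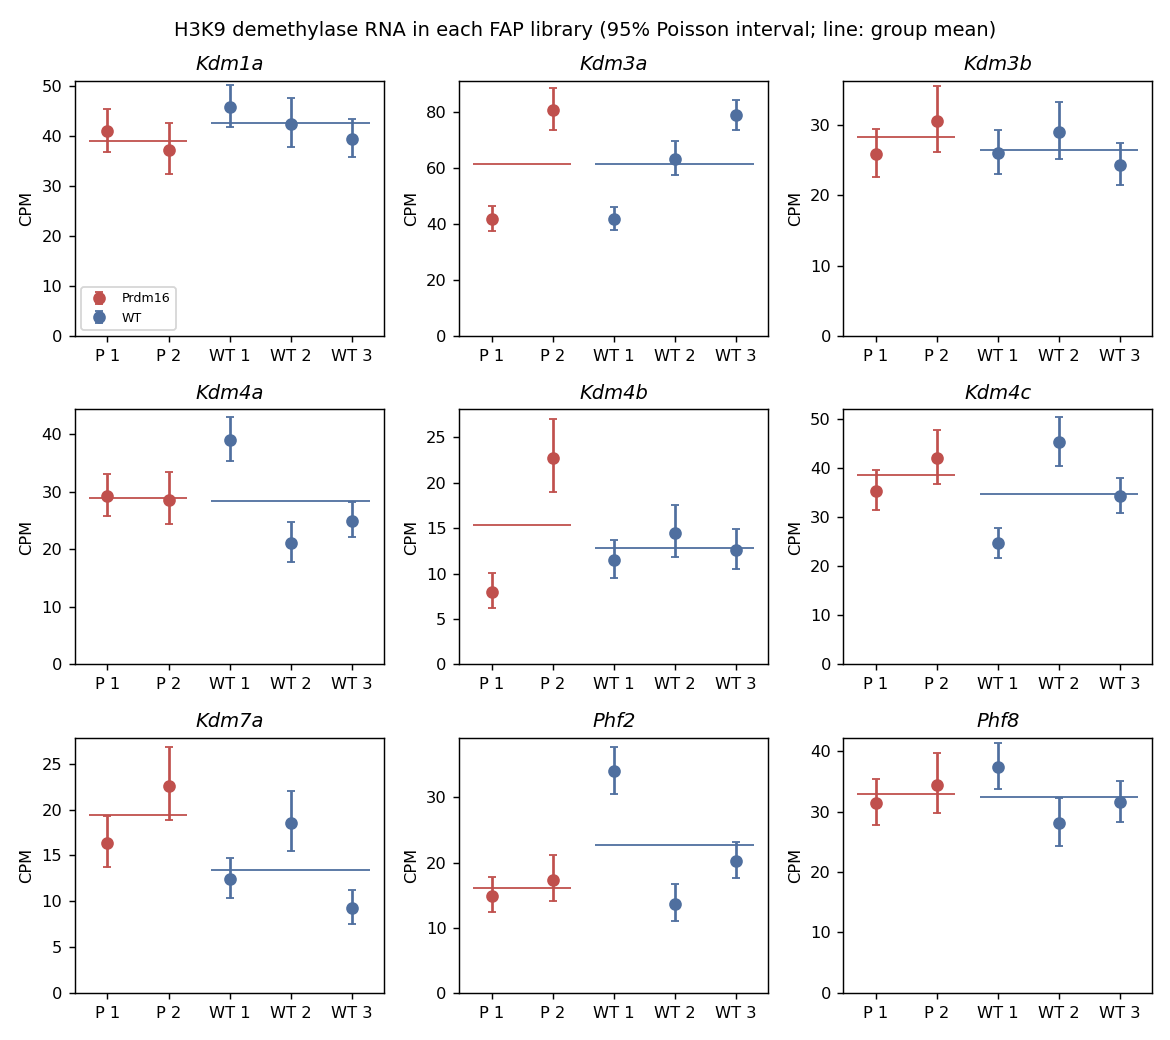
RNA level in CPM of the 9 H3K9 demethylases in each of the 2 Prdm16 (P 1, P 2) and 3 WT libraries; bars are 95% Poisson intervals, which cover counting error only, and lines are group means. The Prdm16 and WT libraries overlap for every gene. Within a genotype the intervals of at least 1 pair of libraries do not meet for 7 of the 9 genes. Kdm1a and Kdm3b are the exceptions. The share of all tested genes with such a pair was not counted, so 7 of 9 has no background here.

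Kdm1a, the amine oxidase that works with CoREST corepressors and also removes methyl groups from H3K4, was among the steadiest members. It had 41.0 and 37.3 CPM in the Prdm16 libraries, against 45.9, 42.6 and 39.5 CPM in the WT libraries. The groups overlapped, with Prdm16 2 the lowest of the 5. The means were 39.1 ± 2.60 CPM (SD, n = 2) in Prdm16 and 42.6 ± 3.21 CPM (SD, n = 3) in WT, a log2 fold change of -0.12 with a 95% interval from -0.60 to 0.36 (edgeR adjusted p = 0.9996). Kdm1a lies on chromosome 4 from 136550533 to 136602787 (GRCm38), and its annotated span overlaps that of Luzp1.

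Kdm3a and Kdm3b remove mono- and dimethyl marks from H3K9, the state read in the chromatin libraries. Kdm3a, on chromosome 6 from 71588970 to 71632990, had 41.8 and 80.6 CPM in the Prdm16 libraries, against 41.7, 63.2 and 78.7 CPM in the WT libraries. Each genotype thus held a library at about 42 CPM and a library at about 80 CPM, and the genotype means were equal, 61.2 ± 27.5 CPM (SD, n = 2) in Prdm16 and 61.2 ± 18.5 CPM (SD, n = 3) in WT. The log2 fold change was -0.0027 with a 95% interval from -0.83 to 0.82, so changes of up to that size in either direction were not resolved. Kdm3b, on chromosome 18 from 34777008 to 34839370, did not share that pattern. It had 25.8 and 30.5 CPM in the Prdm16 libraries, against 26.0, 29.0 and 24.3 CPM in the WT libraries (log2 fold change 0.093, interval -0.43 to 0.62). Its highest and lowest libraries differed by 1.26 times, where those of Kdm3a differed by 1.93 times.

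The Kdm4 enzymes act mainly on trimethylated and dimethylated H3K9 and on H3K36. Kdm4a, on chromosome 4 from 118136957 to 118180090, had 29.3 and 28.6 CPM in the Prdm16 libraries, against 39.1, 21.1 and 25.0 CPM in the WT libraries. Both Prdm16 values fell inside the wide WT range, and WT 1 was the highest library (log2 fold change 0.026, interval -0.67 to 0.72). Kdm4b, on chromosome 17 from 56325970 to 56403774 and known as a HIF target in human cells, had 7.94 and 22.7 CPM in the Prdm16 libraries, against 11.4, 14.5 and 12.6 CPM in the WT libraries. The Prdm16 libraries were thus the lowest and the highest of the 5, and their 95% Poisson intervals of 6.16 to 10.1 CPM and 19.0 to 27.0 CPM did not meet. Its log2 fold change was 0.25 with an interval from -0.77 to 1.26, and -0.68 without Prdm16 2. Kdm4c, on chromosome 4 from 74242497 to 74405864, had 35.3 and 41.9 CPM in the Prdm16 libraries, against 24.6, 45.2 and 34.2 CPM in the WT libraries. Here WT 1 was the lowest and WT 2 the highest (log2 fold change 0.16, interval -0.51 to 0.82).

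Kdm7a, Phf2 and Phf8 form a subfamily in which a PHD finger reads trimethylated H3K4 next to the JmjC domain. Kdm7a, on chromosome 6 from 39136620 to 39206773, had 16.3 and 22.6 CPM in the Prdm16 libraries, against 12.4, 18.5 and 9.24 CPM in the WT libraries. It had the smallest p of the 9 members, with means of 19.4 ± 4.39 CPM (SD, n = 2) in Prdm16 and 13.4 ± 4.70 CPM (SD, n = 3) in WT. The log2 fold change was 0.54 (SE 0.36, edgeR adjusted p = 0.9996). WT 2 lay above Prdm16 1, so the groups overlapped. Without WT 2 the log2 fold change was 0.84, which passed an unadjusted threshold of 0.05 (edgeR adjusted p = 0.979). With WT 3 and Prdm16 2 as the Prdm16 pair it was -0.0023.

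Phf2, which is known to act on H3K9 with Arid5b and to support adipocyte formation in mice, is a chromosome 13 gene (48801750 to 48870885). Its RNA level was 14.9 and 17.4 CPM in the Prdm16 libraries, against 34.1, 13.6 and 20.2 CPM in the WT libraries. WT 1 stood above all other libraries, with a Poisson interval of 30.6 to 37.8 CPM. The log2 fold change was -0.49 with an interval from -1.40 to 0.42, and it was -0.087 without WT 1. Phf8, which removes H3K9me2, H3K9me1 and H4K20me1, is X-linked (151520641 to 151633859). Its RNA level was 31.4 and 34.5 CPM in the Prdm16 libraries, against 37.4, 28.1 and 31.5 CPM in the WT libraries (log2 fold change 0.024, interval -0.50 to 0.55). In Prdm16 2, the library with low Xist, its 34.5 CPM lay within the range of the other 4 libraries. The annotated spans of Kdm4a, Kdm4b, Kdm7a and Phf8 each overlap 1 other entry. This is a pseudogene for Kdm4a, a long noncoding RNA for Kdm4b and for Kdm7a, and a small nucleolar RNA for Phf8. The labels do not say whether counting used the strand.

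**Figure D2:**
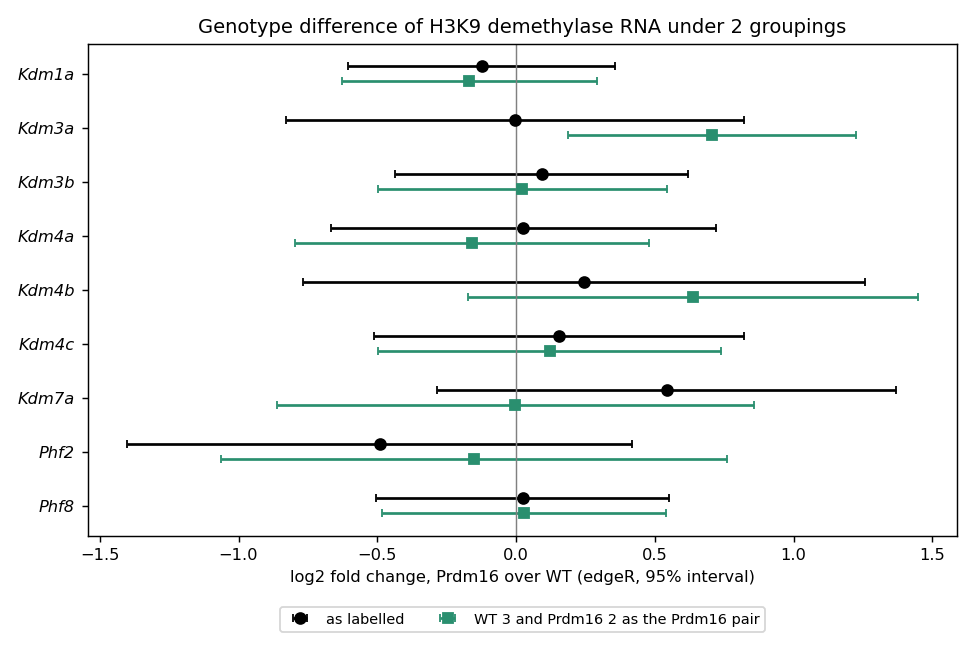
Log2 fold change of Prdm16 over WT with 95% intervals from edgeR for the libraries as labelled (black) and with WT 3 and Prdm16 2 as the Prdm16 pair (green). The labelled intervals all include 0, and under the other grouping that of Kdm3a runs from 0.19 to 1.22.

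The members fell into steady and variable genes when all 5 libraries were set side by side, a description that does not use the genotype. The SD over the 5 libraries was 7.87% of the mean for Kdm1a, 9.47% for Kdm3b and 10.8% for Phf8. Among the 5071 tested genes with a mean between those of Kdm4b (13.8 CPM) and Kdm3a (61.2 CPM), the median was 19.6%, and 4.67%, 8.91% and 13.1% of them had a smaller spread than these members. Kdm4c (21.9%) and Kdm4a (23.4%) lay near the middle. Kdm3a (31.0%), Kdm7a (32.8%), Kdm4b (39.8%) and Phf2 (41.0%) were more variable than 79.8%, 82.3%, 89.3% and 90.2% of these genes. For comparison, 1 SD of counting error was 3.44% for the 843 counts of Kdm3a in WT 3 and 12.1% for the 68 counts of Kdm4b in Prdm16 1, the lowest count of any member.

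The libraries that carried the extremes differed from gene to gene. Prdm16 2 was the highest library for 4 members, Kdm3a, Kdm3b, Kdm4b and Kdm7a, and for 22.8% of all tested genes. WT 1 was the highest for Kdm1a, Kdm4a, Phf2 and Phf8, and for 25.1% of all tested genes. WT 1 was also the lowest for Kdm3a and Kdm4c, so no library was high or low for the whole family. Transcript lengths were not used here, so levels of different members were not ranked against each other.

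**Figure D3:**
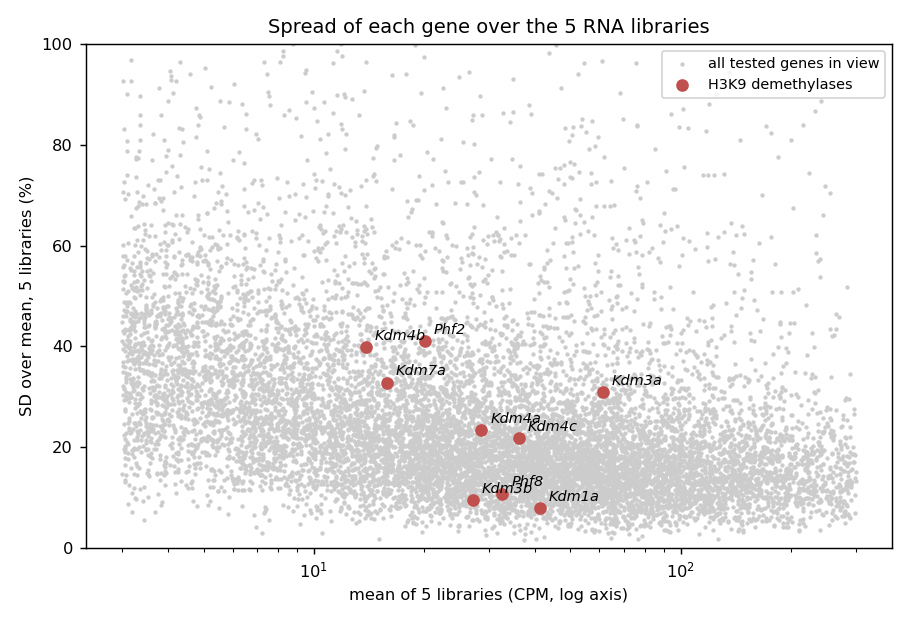
Spread of each tested gene over the 5 RNA libraries (SD as a percentage of the mean) against its mean level in CPM on a log axis, with the 9 H3K9 demethylases in red. Kdm1a, Kdm3b and Phf8 lie at 7.87% to 10.8% and Phf2 at 41.0%.

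Kdm3a shared its library pattern with some of the hypoxia response genes. The 23 genes found of a list of 24 HIF targets summed to 3465 and 8693 CPM in the Prdm16 libraries and to 3957, 5855 and 6987 CPM in the WT libraries. Prdm16 1 and WT 1 were the lowest libraries by this sum, as they were for Kdm3a. WT 2, WT 3 and Prdm16 2 came in the same rising order for both. For Kdm3a the last 2 were not resolved, with 95% Poisson intervals of 73.4 to 84.2 CPM in WT 3 and 73.4 to 88.4 CPM in Prdm16 2. Ldha and Aldoa made up 63.9% of this sum, so it mainly reflects those 2 genes. Of the 23 genes 11 were, like Kdm3a, lower in Prdm16 1 and WT 1 than in each other library. The share of all tested genes with this pattern was not counted, so 11 of 23 has no background here. Aldoa, a glycolytic aldolase, had 1244 and 2516 CPM in the Prdm16 libraries, against 1396, 2079 and 2038 CPM in the WT libraries. P4ha1, a collagen prolyl hydroxylase, had 195 and 424 CPM in the Prdm16 libraries, against 204, 397 and 366 CPM in the WT libraries. These were picked as genes near Kdm3a, and both were low in Prdm16 1 and WT 1. Adm, a vasodilator peptide, departed from the pattern with 149 and 327 CPM in the Prdm16 libraries, against 135, 430 and 141 CPM in the WT libraries. Ddit4 was highest in WT 1.

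With predicted genes, pseudogenes and genes that averaged under 5 CPM left out, those nearest to Kdm3a over the 5 libraries were Usp53 (root mean square distance 0.082 log2 units), Tpi1 (0.098), Amotl2 (0.11), Dmd (0.12) and Abhd18 (0.12). Tpi1 encodes the glycolytic triose phosphate isomerase and Dmd encodes dystrophin. Over all 15240 tested genes Aldoa ranked 13th nearest, P4ha1 42nd, Ldha 167th and Pgk1 195th. Of the 23 hypoxia genes 9 ranked in the farther part, beyond the middle of all tested genes, with Car9 at rank 14429 and Ddit4 at 14440. Of the other members Kdm4b was the nearest (distance 0.31, rank 853), then Kdm4c (0.33, rank 1275), while Phf2 was the farthest (0.71, rank 12302).

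**Figure D4:**
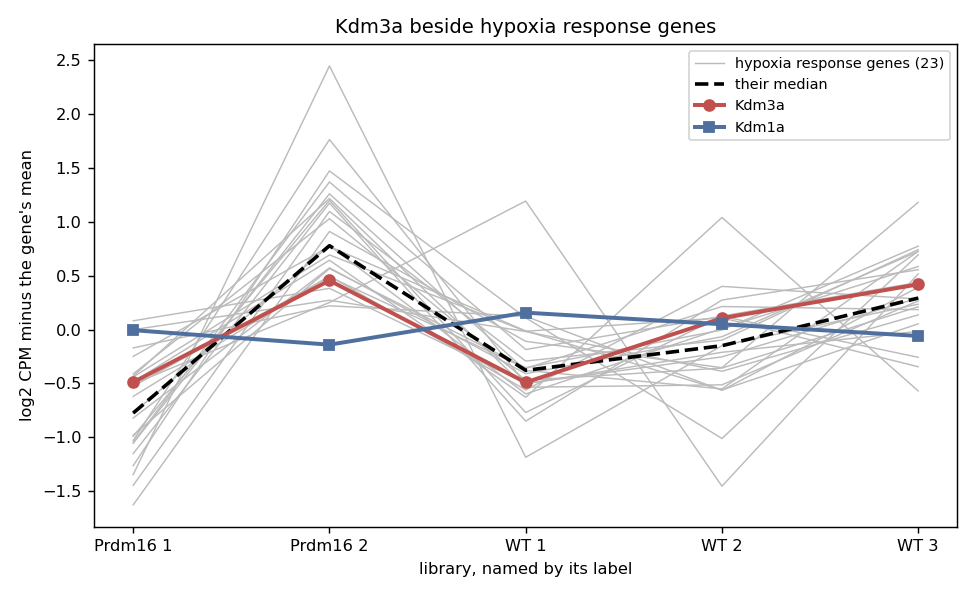
Level of each gene in the 5 libraries as log2 CPM minus the gene's own mean, for 23 hypoxia response genes (grey, dashed median), Kdm3a (red) and Kdm1a (blue). Kdm3a and the hypoxia median are both low in Prdm16 1 and WT 1 and high in Prdm16 2 and WT 3, while Kdm1a stays within a narrow band.

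The authors' deposited table compared the pair WT 3 and Prdm16 2, as set out above, with the rest. It called 0 of the 9 members, where 7.55% of genes with an adjusted p were called, and gave an adjusted p for 3 of the 9. Kdm3a had a log2 fold change of 0.47 (its standard error 0.3) in the authors' deposited table, with p = 0.0148 and an adjusted p of 0.456. It was the 1 member of 9 with a p under 0.05 there, against 4.5% of all genes with a p. Kdm4b followed with 0.21 (p = 0.123, adjusted p = 0.726) in the authors' deposited table, and the remaining 7 members lay between -0.09 and 0.04. DESeq2 without shrinkage gave 0.69 for Kdm3a under the same grouping, so the deposited fold changes are on a smaller scale than those fitted here. The same table called 13 of the 23 hypoxia genes up, where 1.97% of genes with an adjusted p were called up. Of the 23, Ndrg1, Pfkfb4 and Ddit4 had no adjusted p there. It called 0 genes of the other 5 lists described below. The authors' calls followed their own thresholds and not the 0.05 used here, since Pfkfb3 was called up at an adjusted p of 0.0512 in the authors' deposited table.

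Fitted with edgeR under that grouping, which exchanges the labels of WT 3 and Prdm16 1, Kdm3a had a log2 fold change of 0.71 (SE 0.23, edgeR adjusted p = 0.300). It was the 1 member of 9 at an unadjusted p under 0.05, where the background was 9.84%, and 0 members were called where 1.19% of genes were. Kdm4b had a log2 fold change of 0.64 with an interval from -0.17 to 1.45. Without the libraries WT 3 and Prdm16 1, which leaves 1 Prdm16 library, Kdm3a had a log2 fold change of 0.60 (edgeR adjusted p = 0.859). The log2 fold change of Kdm3a was thus -0.0027 as labelled, and its sign also turned in fits that kept the labels, such as 0.18 with a replicate block. It was larger where WT 3 and Prdm16 1 were exchanged or left out. WT 3 and Prdm16 2 were the libraries with the highest Kdm3a level, and which assignment is right was not tested.

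The genes around these enzymes gave 0 calls as labelled, as did all 15240 tested genes, so a count of 0 called sets none of these lists apart. A further list held 16 JmjC family and flavin demethylase genes, not all of which encode histone demethylases. Of these 14 were tested, with 7 higher, 7 lower, 0 called and a median log2 fold change of -0.011. Kdm6b, which removes H3K27 methylation, had 31.2 and 29.5 CPM in the Prdm16 libraries, against 57.0, 32.3 and 38.8 CPM in the WT libraries (log2 fold change -0.49, edgeR adjusted p = 0.9996). It was the 1 gene of this list below all WT libraries, where 1365 of 15240 tested genes were. The other genes named by smallest p were Jmjd1c (0.28), a relative of Kdm3a, Riox2 (0.31), an oxygenase that acts on histidine, and Kdm5c (-0.17), an X-linked H3K4 demethylase. Kdm5c had 135 and 110 CPM in the Prdm16 libraries, against 149, 130 and 135 CPM in the WT libraries. The Y-linked Kdm5d and Uty had 181 and 333 counts in Prdm16 2, and at most 1 count in any other library. Hr and Kdm4d, which also act on H3K9, did not pass the filter.

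Of 19 partners 17 were tested, with 5 higher, 12 lower, 0 called and a median of -0.14. They included the LSD1 partners Phf21a (-0.28), Rcor2 (0.56) and Hdac2 (-0.25) and the corepressor Ctbp2 (-0.26). Hdac1 had 113.34 and 110.65 CPM in the Prdm16 libraries, against 135.83, 124.13 and 113.37 CPM in the WT libraries. It was the 1 partner below all WT libraries, where 1365 of 15240 tested genes were, though Prdm16 1 and WT 3 were nearly equal. Arid5b, the Phf2 partner, had 118 and 101 CPM in the Prdm16 libraries, against 122, 155 and 84.7 CPM in the WT libraries. Gfi1 and Gfi1b, which bring LSD1 to blood genes, had 0 counts in every library.

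All 11 H3K9 methyltransferases and partners were tested, with 8 higher, 3 lower, 0 called and a median of 0.12. Suv39h1, an X-linked methyltransferase that trimethylates H3K9, had 40.9 and 39.3 CPM in the Prdm16 libraries, against 33.7, 20.9 and 29.7 CPM in the WT libraries, a log2 fold change of 0.51 (edgeR adjusted p = 0.9996). Its paralog Suv39h2 had the opposite sign at a low level, with 0.82 and 1.60 CPM in the Prdm16 libraries, against 2.12, 2.15 and 2.43 CPM in the WT libraries (-0.92). Atf7ip (0.28), a partner of Setdb1, and Ehmt1 (-0.24), which lays down H3K9me2, were the other genes named by smallest p. Mecom, a close relative of Prdm16, had 17.5 and 18.8 CPM in the Prdm16 libraries, against 17.2, 12.0 and 16.5 CPM in the WT libraries. Mecom and Suv39h1 were above all WT libraries, where 1345 of 15240 tested genes were, and Suv39h2 was below them all, where 1365 were.

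Of 9 oxygen sensing genes 8 were tested, with 5 higher, 3 lower, 0 called and a median of 0.17. Epas1 was the 1 gene of this list above all WT libraries, where 1345 of 15240 tested genes were. Hif1a, the oxygen-regulated HIF subunit, had 433 and 404 CPM in the Prdm16 libraries, against 813, 355 and 406 CPM in the WT libraries. WT 1 was again the library that stood apart. The genes named by smallest p were Cited2 (-0.61), Egln2 (-1.08), a HIF prolyl hydroxylase that reached 108 CPM in WT 1 and 24.2 to 46.1 CPM elsewhere, Epas1 (0.74) and Arnt2 (0.46).

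Of the 23 hypoxia response genes 17 were higher, 6 lower and 0 called as labelled, with a median of 0.31. Car9 (1.84), Pfkfb3 (0.82), Egln1 (1.19) and Vegfa (0.50) had the smallest p. Car9 had 1.87 and 29.0 CPM in the Prdm16 libraries, against 2.12, 4.59 and 6.06 CPM in the WT libraries. Egln1 was likewise lowest in Prdm16 1 and highest in Prdm16 2. Pfkfb3 and Vegfa were also highest in Prdm16 2, with Prdm16 1 inside the WT range. All 23 overlapped between the genotypes, where 17.8% of all tested genes did not. The 19 genes that make or use 2-oxoglutarate and related acids split into 8 higher and 11 lower, with 0 called and a median of -0.033. The genes named by p were the aminotransferase Got1 (0.36) and the succinate dehydrogenase subunits Sdhb (-0.27) and Sdhd (-0.23). Got1 and Dld were the 2 above all WT libraries, where 1345 of 15240 tested genes were. Sdhb and Sdhd were the 2 below them all, where 1365 were.

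At the chromatin level most members lay outside the H3K9me2 domains, and most tested genes were not covered by them either. Lying outside a called domain does not show that the mark was absent. In the 6 H3K9me2 libraries 2 of 9 members, Kdm4c and Phf8, had at least 0.5 of the gene body inside a domain in at least 1 library, against 6.92% of 13572 tested genes with a location. The other 7 members had no overlap in any library, and the nearest domain lay 355 kb away or farther. The length covered per library differed, at 575, 841 and 690 Mb in Prdm16 and 1017, 635 and 887 Mb in WT.

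Kdm4c lay whole inside an H3K9me2 domain in Prdm16 2, Prdm16 3, WT 1 and WT 3 and outside any domain in Prdm16 1 and WT 2. The mean coverage was 66.7% ± 57.7 in Prdm16 and 66.7% ± 57.7 in WT (SD, n = 3 each), and the exact two-sided permutation test gave p = 1.0, where 0.1 is the smallest p that 3 against 3 libraries allow. The domains around it ran from 12.8 to 13.4 Mb, with the widest on chromosome 4 from 65658001 to 79083000 in WT 1, and their authors' scores were above those of at least 99.3% of domains in the same library. In the libraries without coverage the nearest domain was 876 kb away in Prdm16 1 and 936 kb away in WT 2. Those were the libraries with the least covered length of all 6, and the part of covered length in this split was not tested. Kdm4c RNA was present in all 5 RNA libraries at 24.6 to 45.2 CPM.

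Phf8 reached that share in WT 1 alone, and without WT 1 the count of members was 1 in place of 2. It was covered over 0%, 25.5% and 0% of its body in the Prdm16 libraries, against 100%, 0% and 33.4% in the WT libraries. The means were 8.50% ± 14.7 in Prdm16 and 44.5% ± 50.9 in WT (SD, n = 3 each), and the libraries overlapped (exact two-sided permutation p = 0.4, adjusted p = 0.8 over the 2 members compared). The difference of -36.0 percentage points was -8.22 without WT 1, -58.2 without WT 2 and 0 with domains at or above the median score. Its domains were short, 0.18 Mb in Prdm16 2 and 0.519 and 0.198 Mb in WT 1 and WT 3, and scored below the median of their libraries. The libraries with any Phf8 coverage, Prdm16 2, WT 1 and WT 3, were also those with the most covered length, at 841, 1017 and 887 Mb. Prdm16 1, Prdm16 3 and WT 2 had 575, 690 and 635 Mb. The part of covered length in the Phf8 difference was not tested. The sex of the animals in the ChIP libraries was not given, and its part in this X-linked coverage was not tested.

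No member overlapped a LaminB1 domain in either library, where 1.6% of tested genes with a location had at least 0.5 of the body in a domain in at least 1 of the 2. Kdm4c came closest, with a domain 254 kb away in Prdm16 and 10.1 kb away in WT, and LaminB1 domains covered 331 Mb in Prdm16 and 693 Mb in WT. With 1 library a genotype there was no replicate check of these values.

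**Figure D5:**
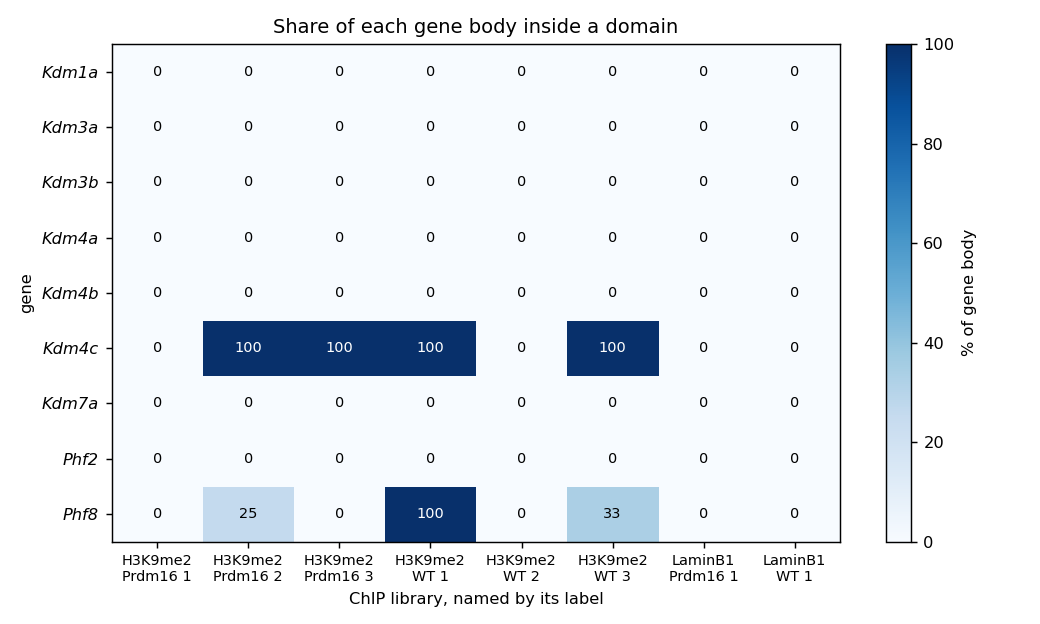
Percentage of each gene body inside a deposited domain in the 3 Prdm16 and 3 WT H3K9me2 libraries and in the LaminB1 library of each genotype. Kdm4c is at 100% in 4 H3K9me2 libraries, Phf8 at 25.5% to 100% in 3, and every other cell is at 0%.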

How the data were processed

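Per the labels, polyadenylated RNA was sequenced by SMART-seq2 in 5 FAP libraries, and chromatin in 6 H3K9me2 and 2 LaminB1 libraries. The 8 inputs entered no step. Per the submitters' processing notes, the tools were DESeq2 1.20, featureCounts, STAR 2.7 and Bowtie 1.2.2, with GRCm38, mm10 and dm6 as builds. Their roles, the counting strand and the domain caller were not given in the sources used here. Raw counts were deposited for 5 libraries, with 0 columns left unmapped. The deposited normalized signal was those counts divided by 1 size factor per library and was not tested. The deposited comparison held a log2 fold change, its standard error and p-values, made by the authors. Each deposited domain carried the authors' score, used here to filter and describe domains only.

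The count test ran in edgeR 4.0.16 under R 4.3.3 (default expression filter, TMM scaling, robust quasi-likelihood test of genotype over all tested genes). Intervals use the test's own degrees of freedom, and a standard error is the fold change over the root of the F statistic. CPM refers to the scaled library size, and centred log2 CPM used a prior count of 2. Alternatives used DESeq2 1.42.0 and limma 3.58.1. Shared replicate numbers were not taken as pairs, since the labels tie them to no animal or day. The test was first tried on simulated counts. Gene positions came from RefSeq (GRCm38.p6), and domains were compared in Python 3.11.15 with pandas 2.3.3. Up to 4 genes per list were named by smallest p (1 result is not reported here), all 9 members were named, and the 5 genes most like Kdm3a were named by distance; other genes of the lists (Aldoa, P4ha1, Hdac1, Arid5b, Hif1a and others with no p beside them) were chosen after their values were seen. The members and lists were chosen with earlier results of these data known.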

Additional observations from a re-analysis of the deposited data

How the results depend on the processing

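Under the alternatives the count of H3K9 demethylases called stayed at 0 of 9 in every fit run (DESeq2 size factors, upper-quartile scaling, no filter on low counts, DESeq2, limma-voom, a replicate block, each library left out, and both regroupings), while calls over all genes were 0 in the reported fit, 25 with no filter, 93 without both doubtful libraries, 182 under the grouping of the authors' deposited comparison and 0 to 4 otherwise. Signs near 0 turned, and so did some larger ones, and the cause was not tested. Kdm4b went from 0.25 as labelled to -0.68 without Prdm16 2. Kdm7a went from 0.54 as labelled to -0.0023 under the grouping of the authors' deposited comparison. The log2 fold change of Kdm3a was 0.015 with upper-quartile scaling, and that of Kdm4b was -0.016 by limma-voom. Under the grouping of the authors' deposited comparison Kdm3a was at 0.71, Kdm4a at -0.16 and Kdm7a at -0.0023. Without both libraries whose label is in doubt Kdm3a was at 0.60 and Kdm4a at -0.10. Leaving out 1 library at a time gave -0.54 to 0.37 for Kdm3a, -0.15 to 0.31 for Kdm4a, -0.68 to 0.80 for Kdm4b, -0.054 to 0.39 for Kdm4c, -0.021 to 0.18 for Kdm3b and -0.067 to 0.13 for Phf8. It gave -0.22 to -0.047 for Kdm1a, 0.31 to 0.84 for Kdm7a and -0.75 to -0.087 for Phf2, which kept their sign. Where this left 1 Prdm16 library, that library was assumed to vary like the others. Replicate numbers do not mark a shared animal or day in the labels. Deviations of same-numbered RNA libraries correlated at 0.21 for number 1 and -0.20 for number 2. With the replicate block Kdm3a was at 0.18 and 0 members were called, and for Phf8 coverage the block gave p = 0.5 by exact sign permutation. The count of members covered by H3K9me2 was 1 in place of 2 with domains at or above the median score. It ranged from 1 to 2 when 1 library was left out, 1 being without WT replicate 1, and stayed at 2 with any overlap, with 0.9 of the body or around the gene start. Levels per length were not run, because no transcript lengths were used here. Member counts of 68 to 843 per library and 2 Prdm16 libraries limit the precision, and the widest interval, that of Kdm4b, ran from -0.77 to 1.26.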
